A study of Mus musculus with 12 samples.

Results

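The AP2 factors are transcription factors that bind DNA as dimers to a short GC-rich palindrome. The 9 genes described here are the 5 that encode AP2 factors (Tfap2a to Tfap2e), 2 that encode inhibitors of AP2 factors (Kctd1 and Kctd15) and 2 that encode coactivators (Cited2 and Cited4). They were taken by symbol, current or older (Tcfap2a to Tcfap2e), from the 18194 genes named on the array, and 17 probe sets named 1 of them and no other gene. In embryonic mouse cortex, Tfap2c, Tfap2d, Kctd1, Kctd15 and Cited2 gave signals high enough to test, on 9 probe sets, while Tfap2a, Tfap2b, Tfap2e and Cited4 did not. The 3 Tfap2c probe sets and the Kctd15 probe set had lower means in AP2gamma knockout (KO) than in wild-type (WT) cortex in both regions. So did 1422293_a_at of Kctd1, by -0.21 caudally and -0.15 rostrally on the log2 scale. None of the 9 tested probe sets passed the threshold in any of the 6 comparisons made.

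AP2 factors share a DNA-binding and dimerisation domain near the end of the protein and an activation domain near its start, so members can pair with one another. CITED2 and CITED4 bind AP2 factors and recruit the acetyltransferases CBP and p300 to them. KCTD1 and KCTD15 bind AP2 factors and block activation, as shown for KCTD1 in human cells and for Kctd15 in zebrafish neural crest. In the developing cortex, AP2gamma is found in dividing progenitors of the ventricular and subventricular zones.

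RNA came from cortex at embryonic day 14, cut into a caudal and a rostral piece, of animals labelled as AP2gamma knock-outs or as wild type. There were 4 groups of 3 arrays, 12 in all: caudal KO (animals 1, 2 and 13), caudal WT (animals 4, 6 and 14), rostral KO (animals 7, 8 and 15) and rostral WT (animals 10, 12 and 16). The series describes the 3 arrays of a group as biological replicates, and every array carries its own animal number. The input to amplification and biotin labelling was 400 ng of total RNA per array. The allele, the exons removed, any Cre driver, the strain and the sex of the animals are not given in the sources used here. Values are log2 signals per probe set as deposited, and how they were normalised is not given in the sources used here. A difference of 1 is a 2-fold difference. Signals of different probe sets are not comparable in level.

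The arrays were alike in signal, with medians of 5.21 to 5.22 and upper quartiles of 7.54 to 7.56. Each array's mean Spearman correlation with the other arrays of its group ran from 0.926 to 0.952 over all 45101 probe sets. All 8 markers of the cortical excitatory lineage that were on the array were tested, among them Pax6 and Emx1. Xist was high on the arrays of caudal WT animal 6 (11.32) and rostral WT animal 12 (11.89) alone, and was at most 5.48 on the other 10 arrays, which include all 6 KO arrays. The summed linear signal of 5 choroid plexus markers was 13300 on the array of caudal WT animal 6, against 74.3 to 228 on the others. The summed signal of 9 meninges and mesenchyme markers was 2140 on the array of rostral KO animal 15, against 177 to 363 on the others. The summed signal of 5 cortical hem markers was 49.7 and 32.1 on the arrays of caudal KO animals 2 and 13, against 102 to 302 on the other 10 arrays. All 3 tested hem markers had lower KO means in both regions, with a median difference of -1.49 in caudal and -0.58 in rostral cortex, and none passed. Their signals were low: over the 12 arrays they averaged 4.13, 5.27 and 6.06, against a table median of 5.21. On the array of caudal WT animal 14, 0 of the 5 hem markers exceeded that median. The hem sum on the array of caudal KO animal 1 was 207. The part of these hem and other marker signals in the Tfap2c and Kctd15 differences was not tested beyond leaving out single arrays.

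Tfap2c, on chromosome 2, encodes AP2gamma and is the gene targeted in the KO animals. The probe set with the highest mean signal, 1436392_s_at, read 7.71, 7.86 and 7.44 in caudal KO cortex, against 9.19, 8.84 and 8.64 in caudal WT cortex. Rostrally it read 8.11, 8.63 and 8.09 in KO, against 9.06, 9.0 and 8.54 in WT. Caudal KO arrays all lay below caudal WT arrays, whereas in rostral cortex the array of KO animal 8 lay above that of WT animal 16. Probe set 1418147_at read 6.91, 7.25 and 6.65 in caudal KO, against 8.37, 8.04 and 7.89 in caudal WT. Its rostral values were 7.40, 7.79 and 7.58 in KO and 8.41, 8.44 and 8.07 in WT. All 6 KO arrays lay below all 6 WT arrays on this probe set. Probe set 1448977_at read 7.17, 6.99 and 6.78 in caudal KO, against 8.32, 8.06 and 7.74 in caudal WT. The rostral arrays read 7.13, 7.50 and 7.17 in KO, against 8.20, 8.05 and 7.65 in WT. Here too the 6 KO arrays were below the 6 WT arrays.

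The Tfap2c differences between KO and WT were larger than the spread within groups. On 1436392_s_at the group means were 7.67 ± 0.21 in caudal KO and 8.89 ± 0.28 in caudal WT, and 8.28 ± 0.30 in rostral KO and 8.87 ± 0.28 in rostral WT (SD, n = 3 each). The caudal KO signal was 42.9%, 44.6% and 48.0% of the WT signal on 1436392_s_at, 1418147_at and 1448977_at, and the rostral KO signal was 66.4%, 61.0% and 61.5% of WT. Averaged over both regions, the KO minus WT differences for Tfap2c were -0.91 ± 0.14, -0.94 ± 0.13 and -0.88 ± 0.13 (SE), in the same order of probe sets. By limma's moderated test over 24644 probe sets, their Benjamini-Hochberg adjusted p-values were 0.0926, 0.0656 and 0.0926, so none passed the threshold of 0.05. Ordered by p, these probe sets stood at positions 6, 3 and 5 of 24644. In caudal cortex alone the differences of Tfap2c were -1.22 ± 0.20, -1.16 ± 0.18 and -1.06 ± 0.19 (SE; limma adjusted p = 0.223, 0.223 and 0.388). In rostral cortex alone they were -0.59 ± 0.20, -0.71 ± 0.18 and -0.70 ± 0.19 (SE; limma adjusted p = 0.744 each).

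The call on Tfap2c changed with 1 probe set per gene, with array weights and with a term for the animals numbered 13 to 16. With 1 probe set per gene, the average KO effect on Tfap2c passed (limma adjusted p = 0.0383). With array weights it passed on 1418147_at and 1448977_at (limma adjusted p = 0.0419 each) but not on 1436392_s_at (0.0711). With animals 13 to 16 as a block all 3 probe sets passed (limma adjusted p = 0.00475 to 0.0049). The range over all settings tried was 0.00475 to 0.547. The labels name no batch, so the block of animals 13 to 16 is an assumption made from their numbers. Without the array of caudal WT animal 6 the averaged differences were -0.92, -0.95 and -0.88, and without that of rostral KO animal 15 they were -0.86, -0.94 and -0.86. The 3 probe sets measure transcripts of 1 gene and are not replicates of each other: over the 12 arrays, which share their groups and normalisation, Pearson's r between them was 0.930 to 0.976. Where these probe sets lie relative to the removed part of the gene is not given in the sources used here, so the remaining signal in KO cortex does not measure intact transcript. In tissue arrays such as these, fewer cells that express a gene and less transcript per cell cannot be told apart.

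**Figure D1:**
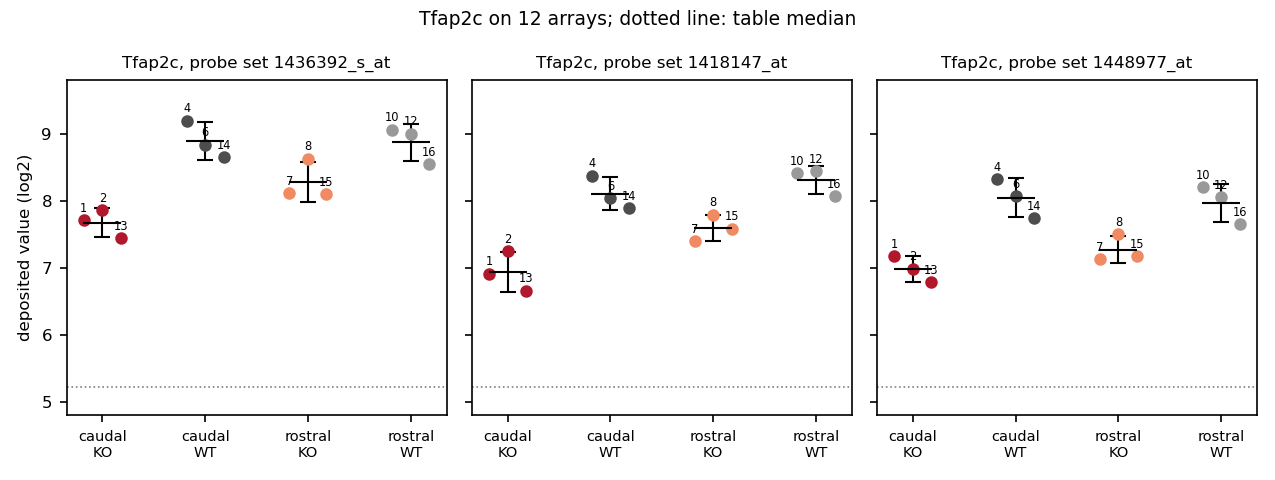
Log2 signal of the 3 Tfap2c probe sets on each of the 12 arrays, by group, with group means. On 1418147_at and 1448977_at all 6 KO arrays lie below all 6 WT arrays, while on 1436392_s_at a rostral KO array (8.63) lies above a rostral WT array (8.54).

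The KO effect on Tfap2c was larger in caudal than in rostral cortex on each probe set, but the difference did not pass the test. On 1436392_s_at the caudal KO effect minus the rostral KO effect was -0.63 ± 0.28 (SE; limma adjusted p = 1, unadjusted p = 0.0415). It was -0.45 ± 0.26 on 1418147_at and -0.36 ± 0.27 on 1448977_at. Within animals 1 to 12, the KO minus WT difference of 1436392_s_at was -1.23 in caudal and -0.66 in rostral cortex, and within animals 13 to 16, with 1 array per group, it was -1.20 in caudal and -0.45 in rostral cortex. Both sets of animals therefore had the larger Tfap2c difference in caudal cortex.

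Tfap2d, on chromosome 1, encodes AP2delta, known for its part in the dorsal midbrain. Its probe set 1425443_at read 5.72, 6.00 and 6.57 in caudal KO, against 5.41, 6.54 and 6.31 in caudal WT. Rostral values were 5.25, 5.09 and 5.81 in KO and 6.36, 5.47 and 5.83 in WT. The genotypes overlapped in both regions, and the signal was close to the table median of 5.21, which it exceeded on 11 of 12 arrays. The KO minus WT difference of Tfap2d was 0.01 ± 0.35 in caudal and -0.51 ± 0.35 in rostral cortex (SE), and -0.25 ± 0.25 averaged over both (limma adjusted p = 0.900). Without the array of caudal WT animal 6 the caudal difference was 0.23, and without that of rostral KO animal 15 the rostral one was -0.72.

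Tfap2e, on chromosome 4, encodes AP2epsilon, best known from the olfactory bulb, and had the most uneven signal among the untested members. Its probe set 1435205_at read 1.08, 0.96 and 3.27 in caudal KO, against 0.92, 0.78 and 2.26 in caudal WT. Rostrally it read 4.91, 5.79 and 5.18 in KO, against 3.65, 2.47 and 3.07 in WT. All 3 rostral KO arrays were above all rostral WT arrays, and the rostral arrays of each genotype were above the caudal ones. Only the array of rostral KO animal 8 exceeded the table median, so Tfap2e was not among the tested probe sets. In the limma fit with no filter on signal, the rostral KO minus WT difference of Tfap2e was 2.23 ± 0.72 (SE; unadjusted p = 0.0081, adjusted p = 0.895). With values under the table median raised to it, the rostral KO minus WT difference was 0.19, or 1.14-fold. That difference came from the array of rostral KO animal 8 alone, since all other values were raised to the median. The caudal minus rostral difference of Tfap2e in that fit was -3.52 ± 0.72 in KO and -1.74 ± 0.72 in WT (SE; limma adjusted p = 0.0960 in KO and 0.638 in WT), and with values raised to the table median it was -0.19 in KO and 0 in WT. Summed signals of 8 ganglionic eminence and interneuron markers ran from 1630 to 3890 on the rostral KO arrays and from 1730 to 2480 on the rostral WT arrays. They ran from 1260 to 1580 on the caudal KO arrays and from 997 to 1490 on the caudal WT arrays, below every rostral array. The part of tissue next to the cortex in the Tfap2e signal was not tested.

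Tfap2a and Tfap2b, whose products act in neural crest and facial development, gave low signals in all 4 groups. The 3 Tfap2a probe sets, on chromosome 13, ran from 2.42 to 5.52, and the 2 Tfap2b probe sets, on chromosome 1, ran from 0.58 to 4.41. Among these 5 probe sets only 1421996_at of Tfap2a exceeded the table median on any array, with 5.52 and 5.44 on the arrays of rostral KO animals 7 and 15. Pearson's r between probe sets of the same gene over the 12 arrays was -0.22 to 0.37 for Tfap2a and -0.00 for Tfap2b, so at these signals the probe sets of a gene did not vary together. Of the 4 neural crest markers used, which include both genes, 1 had a signal high enough to test.

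Kctd15, on chromosome 7, encodes an inhibitor that binds the activation domain of AP2 factors and limits neural crest formation in zebrafish. Its single probe set, 1435339_at, read 9.74, 9.74 and 9.53 in caudal KO, against 10.10, 10.19 and 10.08 in caudal WT. In rostral cortex it read 9.77, 9.89 and 9.77 in KO, against 10.11, 9.95 and 10.23 in WT. All 6 KO arrays lay below all 6 WT arrays, with 9.89 the highest KO value and 9.95 the lowest WT value. The group means were 9.67 ± 0.12 in caudal KO and 10.12 ± 0.06 in caudal WT, and 9.81 ± 0.07 in rostral KO and 10.10 ± 0.14 in rostral WT (SD, n = 3 each). The KO signal of Kctd15 was 73.1% of WT in caudal cortex and 82.1% in rostral cortex.

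The Kctd15 difference did not pass the test over all probe sets. Averaged over both regions it was -0.37 ± 0.07 (SE; limma adjusted p = 0.185), at position 12 of 24644 by p. It was -0.45 ± 0.09 in caudal cortex and -0.29 ± 0.09 in rostral cortex (SE; limma adjusted p = 0.703 and 0.744), and the caudal effect minus the rostral effect was -0.17 ± 0.13 (SE). Over 26 other settings of the analysis the averaged Kctd15 difference ran from -0.41 to -0.30 and its limma adjusted p from 0.0664 to 0.621, so it passed under none of them. Without the array of caudal WT animal 6 it was -0.35 ± 0.07, and without that of rostral KO animal 15 it was -0.36 ± 0.07 (SE). With a covariate built from Xist and 3 Y-linked genes it was -0.39 ± 0.07 (SE). Within animals 13 to 16 the KO minus WT difference of Kctd15 was -0.55 in caudal and -0.47 in rostral cortex, and within animals 1 to 12 it was -0.40 and -0.20.

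The regions upstream of Kctd15 are shown because it had the smallest p of the averaged KO comparison among members other than the targeted gene. It was also the only member with an AP2-type palindrome among the 7 that had a promoter window. RefSeq promoter windows (GRCm38.p6, 250 bases before to 50 after an annotated start) were found for 7 of the 9 genes, 12 windows in all. None was found for Tfap2c or Kctd1, so these genes were not searched. The 12 windows were searched for GCCNNNGGC, the core form of the palindrome, which is its own reverse complement. It was present in 2 of the 12 member windows, both among the 3 of Kctd15, against 16.6% of all 32851 windows in the table. By gene it was present in 1 of 7, against 18.5% of all genes. Both member counts were near the share over the whole table. The third Kctd15 window, chr7:34654349-34654648, held none and had a G and C content of 75.3%. The windows with a match are given below on the minus strand, the strand of the gene, 5′ to 3′, with the palindromes in capitals.
Kctd15, window at the gene's outermost start, chr7:34655460-34655759: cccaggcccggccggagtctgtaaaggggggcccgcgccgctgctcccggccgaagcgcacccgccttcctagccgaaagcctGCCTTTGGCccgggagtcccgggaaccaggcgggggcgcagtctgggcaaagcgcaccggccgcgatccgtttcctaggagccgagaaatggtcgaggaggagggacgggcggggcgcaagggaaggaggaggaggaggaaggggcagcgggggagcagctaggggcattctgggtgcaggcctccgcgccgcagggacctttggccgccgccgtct
Kctd15, window at an internal start, chr7:34652883-34653182: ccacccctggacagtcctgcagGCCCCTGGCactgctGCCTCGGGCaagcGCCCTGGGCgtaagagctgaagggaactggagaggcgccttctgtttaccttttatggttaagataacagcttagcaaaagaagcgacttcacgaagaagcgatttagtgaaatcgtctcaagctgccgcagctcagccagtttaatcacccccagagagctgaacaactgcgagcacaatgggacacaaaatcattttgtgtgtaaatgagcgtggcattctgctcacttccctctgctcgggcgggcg
The first window holds 1 palindrome, GCCTTTGGC, beginning 167 bases before the start. The second holds 3, GCCCCTGGC, GCCTCGGGC and GCCCTGGGC, beginning 228, 213 and 200 bases before its start. The G and C content of these windows was 72.3% and 54%. A match of letters is a description of the sequence, and binding of AP2 factors was not measured here.

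Kctd1, on chromosome 18, encodes a related inhibitor, and its 2 probe sets did not give the same picture. Probe set 1425104_at read 7.30, 6.68 and 6.38 in caudal KO, against 6.75, 6.35 and 6.67 in caudal WT. In rostral cortex it read 6.53, 6.84 and 6.83 in KO, against 7.34, 7.19 and 7.30 in WT. The genotypes overlapped in caudal cortex, whereas all rostral KO arrays were below all rostral WT arrays. Probe set 1422293_a_at read 6.61, 6.69 and 6.26 in caudal KO and 7.05, 6.68 and 6.44 in caudal WT. In rostral cortex it read 7.01, 7.02 and 6.89 in KO, against 7.13, 7.16 and 7.09 in WT, again with every KO array below every WT array. Over the 12 arrays Pearson's r between the Kctd1 probe sets was 0.54.

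The rostral KO minus WT difference of Kctd1 was -0.54 ± 0.21 on 1425104_at (SE; limma adjusted p = 0.760, unadjusted p = 0.0245) and -0.15 ± 0.17 on 1422293_a_at (SE). The caudal difference was 0.20 ± 0.21 on 1425104_at and -0.21 ± 0.17 on 1422293_a_at (SE), so the probe sets pointed in opposite directions there. The caudal effect minus the rostral effect was 0.74 ± 0.30 on 1425104_at (SE; limma adjusted p = 1, unadjusted p = 0.0288), but -0.05 ± 0.24 on 1422293_a_at. Without the array of caudal WT animal 6 the caudal difference of 1425104_at was 0.08. Its caudal value also differed between sets of animals, at 0.44 within animals 1 to 12 and -0.29 within animals 13 to 16.

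**Figure D2:**
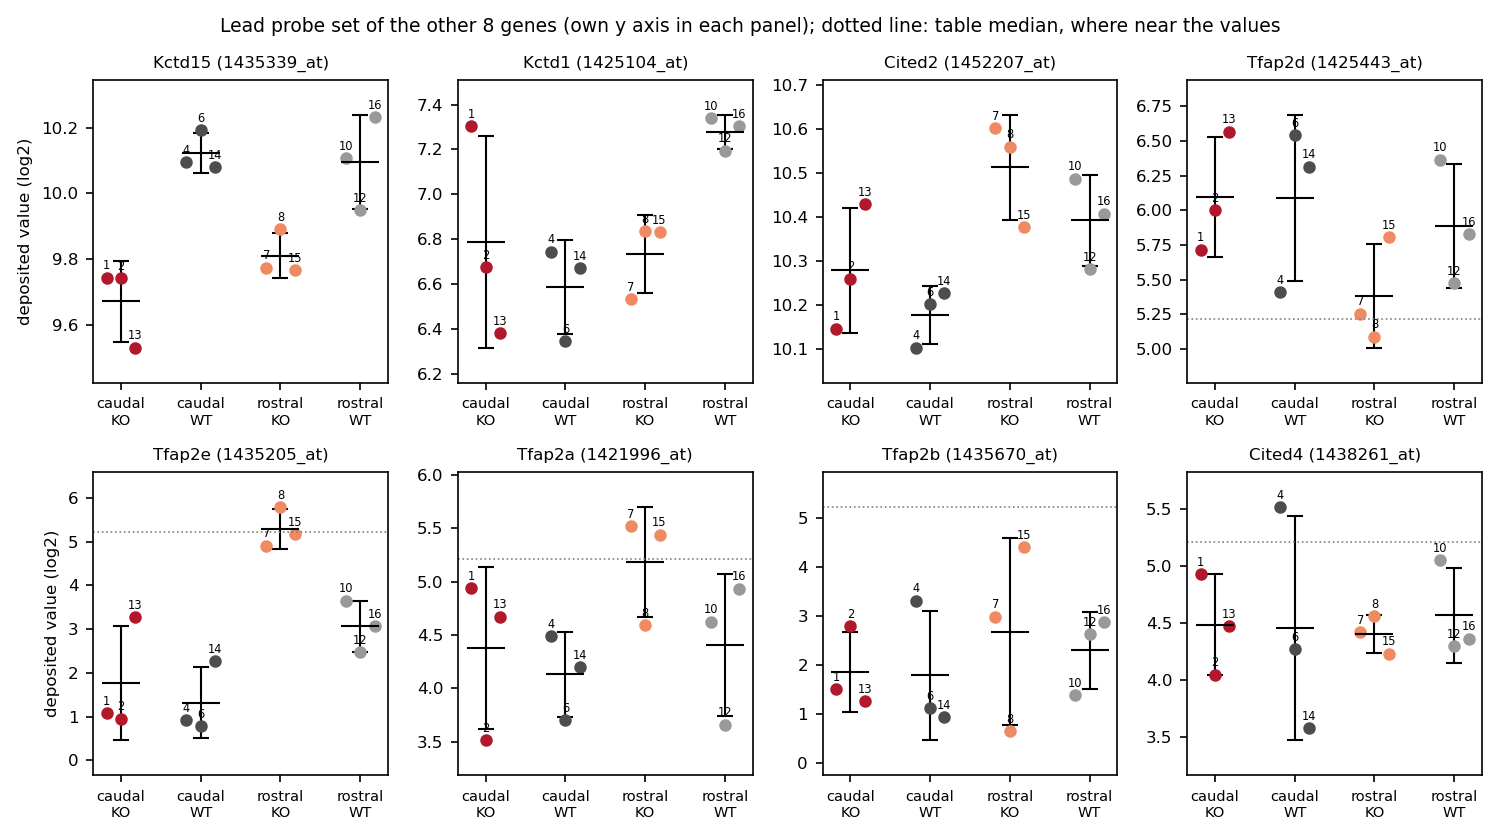
Log2 signal of the lead probe set (highest mean) of the other 8 member genes on each array, by group, with group means and, where it lies near the values, the table median of 5.21. Kctd15 is lower on all 6 KO arrays than on all 6 WT arrays, and Tfap2e is highest on the 3 rostral KO arrays.

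Cited2, on chromosome 10, encodes a coactivator that brings CBP and p300 to AP2 factors and also competes with the hypoxia factor HIF1 for them. Its lead probe set, 1452207_at, read 10.15, 10.26 and 10.43 in caudal KO, against 10.10, 10.20 and 10.23 in caudal WT. Its rostral values were 10.60, 10.56 and 10.38 in KO, against 10.49, 10.28 and 10.41 in WT. The genotypes overlapped in both regions, and the 12 values spanned 10.10 to 10.60. The KO minus WT difference of Cited2 averaged over both regions was 0.11 ± 0.07 (SE; limma adjusted p = 0.817). The other probe set, 1421267_a_at, read 8.43, 8.35 and 8.45 in caudal KO and 8.26, 8.55 and 8.15 in caudal WT. Its rostral values were 8.77, 8.86 and 8.37 in KO and 8.75, 8.59 and 8.67 in WT. Its averaged KO effect was 0.05 ± 0.10 (SE), or 0.10 without caudal WT animal 6 and 0.12 without rostral KO animal 15, and Pearson's r between the Cited2 probe sets was 0.77 over the 12 arrays. Cited4, on chromosome 4, encodes a related coactivator. Its probe sets, 1438261_at and 1425400_a_at, ran from 0.46 to 5.52 and had an r of 0.16 between them, and 1438261_at exceeded the table median on 1 array only, that of caudal WT animal 4.

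Of the 9 tested member probe sets, of which 3 belong to the targeted gene, 5 had lower and 4 had higher KO means in caudal cortex, and 7 had lower and 2 had higher KO means in rostral cortex. The median KO minus WT effect of the 9 was -0.21 caudally, -0.51 rostrally and -0.25 in the average of both. For all tested probe sets it was -0.00, -0.01 and -0.00. The medians of the 9 include the 3 Tfap2c probe sets. Caudally the other differences were 0.01 (Tfap2d), 0.20 and -0.21 (Kctd1), -0.45 (Kctd15), and 0.10 and 0.09 (Cited2). Rostrally they were -0.51 (Tfap2d), -0.54 and -0.15 (Kctd1), -0.29 (Kctd15), and 0.12 and 0.00 (Cited2). By limma's adjusted p, 0 members were called caudally, rostrally and in the average of both regions, where 0%, 0% and 0.00812% of all tested probe sets were called. At an unadjusted p under 0.05 there were 4, 5 and 4 member probe sets, 3 of them of Tfap2c each time, against 3.54%, 6.24% and 6.77% of all tested probe sets. In caudal cortex 4 of 9 member probe sets, of Tfap2c and Kctd15, had every KO array below every WT array, against 3.68% of all. In rostral cortex there were 5 of 9, of Tfap2c, Kctd1 and Kctd15, against 6.66%. The same held in both regions at once for 3 of 9, which were 1418147_at and 1448977_at of Tfap2c and the Kctd15 probe set, against 0.625%. These 3 were also the ones with all 6 KO arrays below all 6 WT arrays, against 0.252%. No member had every KO array above every WT array in either region among those tested. For the difference between the caudal and the rostral KO effect, 0 members and 0% of all tested probe sets were called, and at an unadjusted p under 0.05 there were 2 member probe sets against 2.7% of all.

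**Figure D3:**
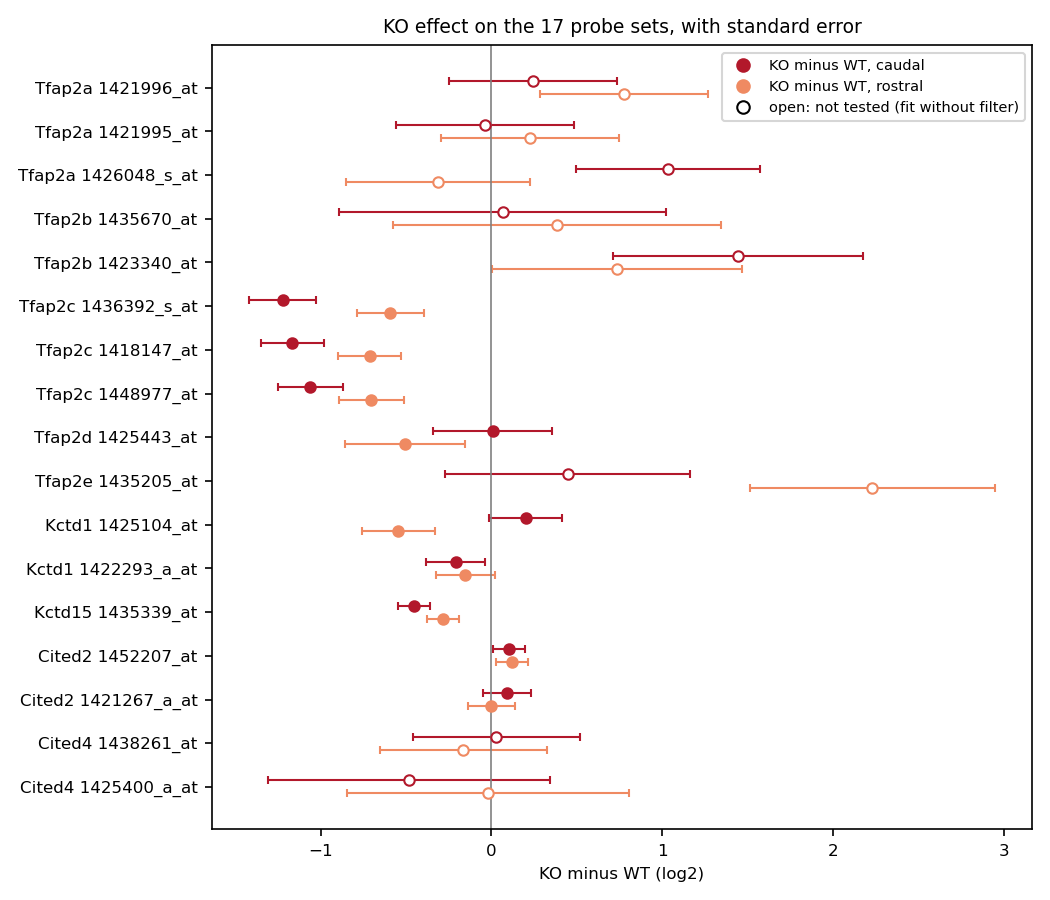
KO minus WT difference (log2, with SE) of each member probe set in caudal cortex and in rostral cortex; filled points were tested and open points come from the fit with no filter on signal. The Tfap2c probe sets lie between -1.22 and -0.59 and Kctd15 at -0.45 and -0.29, while Cited2 lies between 0.00 and 0.12.

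The members were also compared between caudal and rostral cortex within each genotype. In KO cortex, Tfap2c was lower caudally on 2 probe sets: the caudal minus rostral difference was -0.61 ± 0.20 on 1436392_s_at and -0.65 ± 0.18 on 1418147_at (SE; limma adjusted p = 0.271 and 0.187), and the arrays did not overlap. The first passed with animals 13 to 16 as a block (limma adjusted p = 0.04997), and the second passed with caudal and rostral arrays paired by animal-number order as a random block (0.0477). The difference was -0.29 ± 0.19 on 1448977_at. In WT cortex the same differences of Tfap2c were 0.02 ± 0.20, -0.20 ± 0.18 and 0.07 ± 0.19 (SE), with overlapping arrays on all 3. For Kctd15 the difference was -0.14 ± 0.09 in KO, with no overlap, and 0.03 ± 0.09 in WT (SE). For Tfap2d it was 0.71 ± 0.35 in KO (SE; limma adjusted p = 0.514) and 0.20 ± 0.35 in WT (SE), where it was -0.03 without caudal WT animal 6 and -0.23 without animals 6 and 12.

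Cited2 and 1 of the Kctd1 probe sets had lower caudal means in both genotypes, though none of these differences passed. The caudal minus rostral difference of Kctd1 was 0.05 ± 0.21 in KO and -0.69 ± 0.21 in WT on 1425104_at (SE; limma adjusted p = 0.277 in WT). On 1422293_a_at it was -0.46 ± 0.17 in KO and -0.40 ± 0.17 in WT (SE; limma adjusted p = 0.375 and 0.556). For Cited2 it was -0.23 ± 0.09 in KO and -0.22 ± 0.09 in WT on 1452207_at (SE; limma adjusted p = 0.404 and 0.568). On 1421267_a_at it was -0.26 ± 0.14 in KO and -0.35 ± 0.14 in WT (SE; limma adjusted p = 0.495 in WT).

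By limma's adjusted p, 0 members were called between regions in KO and 0 in WT, where 0.369% and 0.337% of all tested probe sets were called. Every caudal array lay below every rostral array for 4 of 9 member probe sets in KO, of Tfap2c, Kctd1 and Kctd15, against 9.86% of all. In WT this was so for 4 of 9, the probe sets of Kctd1 and Cited2, against 7.08%. At an unadjusted p under 0.05 there were 4 member probe sets in KO and 4 in WT, against 10.4% and 8.23% of all tested probe sets. Without the arrays of animals 6 and 12, whose Xist signal was high, the number of probe sets called between regions in WT fell to 5, against 83 with them. That fit also had fewer WT arrays, and animal 6 had the high choroid plexus signal. Leaving out rostral KO animal 8 alone took the number called between regions in KO from 91 to 20. The part of sex in the fall in WT was not tested. Among the cell type markers, 1 passed in any comparison, Calb2 of the Cajal-Retzius list. It fell by 2.04 ± 0.21 on the log2 scale in caudal relative to rostral KO cortex (SE; limma adjusted p = 0.00244). The 5 markers of that list did not share a fall of this size: 4 were lower and 1 higher caudally, with a median of -0.20.

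**Figure D4:**
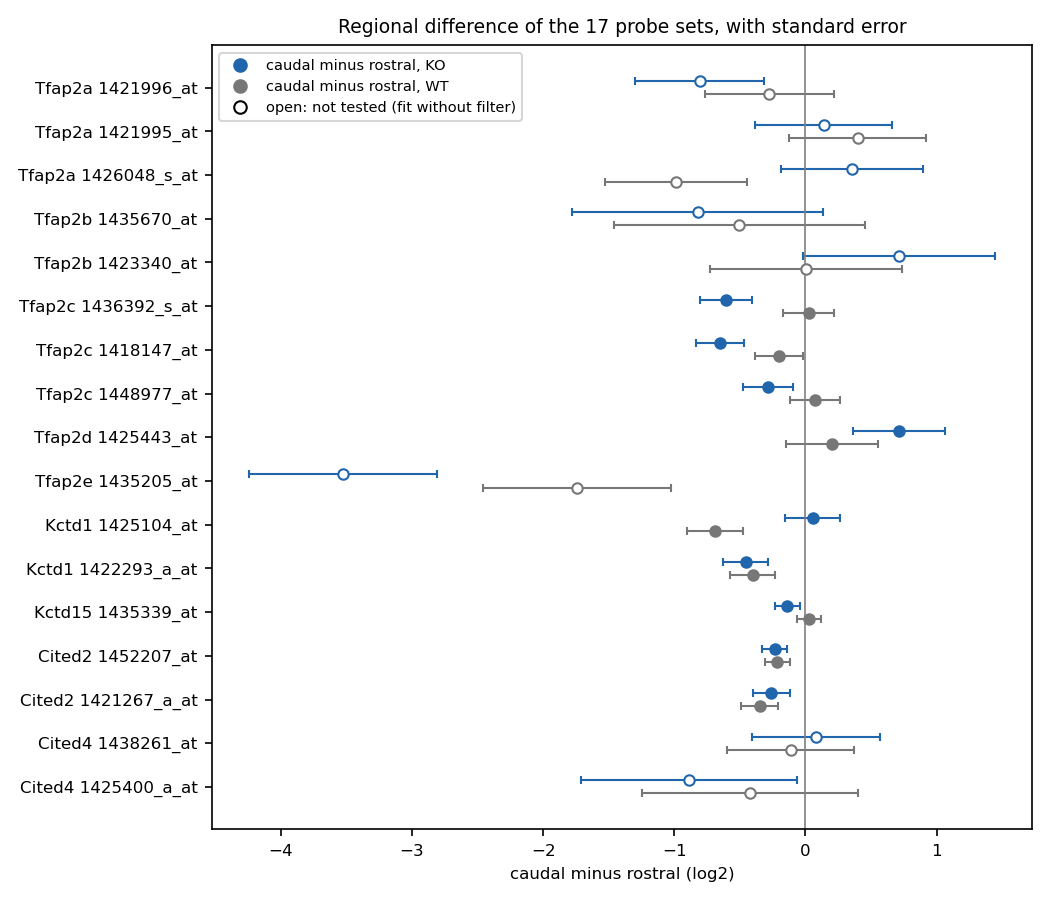
Caudal minus rostral difference (log2, with SE) of each member probe set in KO and in WT cortex; filled points were tested and open points come from the fit with no filter on signal. The open Tfap2e points, at -3.52 in KO and -1.74 in WT, come from signals almost all under the table median and become -0.19 and 0 when values under it are raised to it, and 2 of the 3 Tfap2c probe sets lie at -0.61 and -0.65 in KO.

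The genes whose signal followed each tested member most closely over the 12 arrays were looked up among 11770 other named genes, by Pearson's r of lead probe sets. These values describe arrays that share groups, animals and normalisation. For Tfap2c they were Neurod4 (0.919), Homer2 (0.911) and Wdr24 (0.909). For Kctd15 they were Sarm1 (0.927), Isca1 (0.905) and Neurod4 (0.895), so Neurod4 was among the nearest 3 of both genes. For Kctd1 they were Ndc1 (0.855), Bicd2 (0.836) and Prdm4 (0.822), and for Tfap2d they were Zmynd8 (0.911), Cxcl12 (0.879) and Cntnap4 (0.867). For Cited2 they were Pou3f3 (0.910), Prdm8 (0.908) and Fhod3 (0.906). Neurod4, near to Tfap2c and Kctd15, averaged 5.65 over the 12 arrays, close to the table median of 5.21.

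Other proteins that bind or modify AP2 factors gave no passed difference between genotypes. Of 17 such genes, 13 were tested, and none passed in either direction in either region or in their average. Averaged over both regions 9 had higher and 4 lower KO values, with a median of 0.05, against -0.01 for all tested genes. The smallest p was that of Parp1, a poly(ADP-ribose) polymerase that binds AP2alpha in human cells, at -0.26 ± 0.08 (SE; limma adjusted p = 0.594). Sumo3, a protein modifier, and Ctnnb1, the Wnt effector beta-catenin, followed at 0.10 ± 0.05 and 0.06 ± 0.03 (SE; limma adjusted p = 0.751 and 0.758). By region, Myc, a growth-promoting factor with which AP2 factors interact, fell in caudal relative to rostral cortex: the caudal minus rostral difference was -0.69 ± 0.11 in KO and -0.60 ± 0.11 in WT (SE; limma adjusted p = 0.0281 and 0.0496). Under other settings Myc passed in 15 of 27 in KO (limma adjusted p up to 0.164) and in 8 of 27 in WT (up to 0.232), always with the same sign. The KO call was lost without any 1 KO array or rostral WT animal 10 or 12, and the WT call without any 1 array other than that of caudal KO animal 13.

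Genes known to respond to AP2 factors in other tissues did not pass either. Of 20 such genes, 12 were tested, and averaged over both regions 4 had higher and 8 lower KO values, with a median of -0.02. In caudal cortex the median was -0.24, with 4 higher and 8 lower, and in rostral cortex it was 0.01, with 6 higher and 6 lower. The smallest p was that of Mt2, a metallothionein whose human counterpart has a classical AP2 site in its promoter, at -1.20 ± 0.20 (SE; limma adjusted p = 0.136). Mcam, an adhesion molecule repressed by AP2alpha in melanoma cells, had a difference of -0.78 ± 0.37 and Ecm1, an extracellular matrix protein, one of -0.25 ± 0.15 (SE; limma adjusted p = 0.744 and 0.817).

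The 3 cortical genes linked to AP2gamma by the study were Neurod4, Eomes and Neurog2, which encode transcription factors of neuronal progenitors. They were chosen by the study on these samples, so their direction is not independent evidence. Neurod4 fell in KO, by 2.26 ± 0.23 on the log2 scale averaged over both regions (SE; limma adjusted p = 0.00734). Its lead probe set averaged 5.65 over the 12 arrays, close to the table median of 5.21. Under other settings the Neurod4 difference ran from -2.47 to -1.47 and passed in 21 of 25. The call was lost without the array of caudal WT animal 4 (limma adjusted p = 0.0556) or rostral WT animal 10 (0.0643). It was also lost with animals 1 to 12 only (limma adjusted p = 0.101) and without animals 6 and 12 (0.154). Eomes, a marker of basal progenitors, had a difference of -0.56 ± 0.08 and Neurog2 one of -0.09 ± 0.11 (SE; limma adjusted p = 0.0926 and 0.928). Their 4 promoter windows held no GCCNNNGGC, which was present in 16.6% of all 32851 windows.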

How the data were processed

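Gene expression was measured on 12 arrays of mouse cortex. Per the labels, RNA was purified with a column kit with DNase treatment, amplified in a single round and labelled with biotin. The authors deposited 1 log2 value per probe set and array, from -3.81 to 14.02, a unit read from the values. Background correction, normalisation and summarisation are not given in the sources used here, and no further scaling was applied. Precision is limited by having 3 arrays per group.

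Probe sets were named with the platform annotation: of 45101, 34958 named 1 gene, 932 several and 9211 none, and 64 controls were left out. A probe set was tested if it exceeded the table median of 5.21 on at least 3 of 12 arrays. In limma 3.58.1 (R 4.3.3), 1 fit with 1 mean per group gave the 6 comparisons, with moderation that follows signal level (8 residual degrees of freedom, 4.56 prior), two-sided p-values and Benjamini-Hochberg adjustment over 24644 probe sets. The fit was tested on simulated data. Every probe set of the 9 genes is named, as are the 3 genes most like each tested member and, from each list, the genes that passed or else the 3 of smallest p; cell type lists add Pax6, Emx1 and Calb2. The members and lists were chosen with earlier results of these data known. Alternatives were other scalings, filters and moderations, blocks, a sex-linked covariate and each array left out. Promoter windows are from RefSeq.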

Additional observations from a re-analysis of the deposited data

How the results depend on the processing

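The 9 tested member probe sets were refitted under 27 other settings. Of 1398 refitted member effects, 1351 kept their direction and their side of the threshold, 11 newly passed, 36 changed sign without passing, and 0 reversed with a call. With animals 13 to 16 as a block, the number of members past the threshold was 3 for KO minus WT in caudal cortex (Tfap2c adjusted p = 0.0184, 0.0277 and 0.0277), 3 averaged over both regions, and 1 for caudal minus rostral in KO. Averaged over both regions it was 1 with 1 probe set per gene (Tfap2c adjusted p = 0.0383) and 2 with array weights (Tfap2c, 0.0419 each). With caudal and rostral arrays of a genotype paired by the order of their animal numbers, as a random block (consensus correlation 0.286) it was 1 for caudal minus rostral in KO. All of these were Tfap2c probe sets, and with each array left out in turn the number was 0 in every comparison. The averaged Tfap2c effect had limma adjusted p-values of 0.00475 to 0.547 over all settings, and with the sex-linked covariate they were 0.364, 0.211 and 0.364. Over the whole table the number past the threshold ran from 0 to 8 averaged over both regions (2 as reported, 8 with array weights), from 0 to 5 in caudal cortex, from 0 to 3 in rostral cortex, from 20 to 565 for caudal minus rostral in KO (91 as reported, 20 without rostral KO animal 8, 565 with array weights) and from 5 to 334 in WT (83 as reported, 5 without animals 6 and 12, 334 with the random block). The causes were not tested. The labels give every array its own animal number and state no pairing, so the random block is an assumption. The block of animals 13 to 16 is also an assumption, made from their numbers, as the labels name no batch. Signals of Tfap2a, Tfap2b, Tfap2e and Cited4 lay mostly under the table median, and that of Tfap2d close to it, which limits what 3 arrays per group can show for them.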
